A study of Mus musculus with 24 samples.

Results

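The genes described here were grouped as receptors for steroid, thyroid and prolactin hormones, and they are 7 of the 25746 genes listed in a hepatic RNAseq data set of 24 mice. They were chosen by name, with no measured value in the rule but with earlier results of these data known. They comprise estrogen receptor alpha (Esr1), the glucocorticoid receptor (Nr3c1), the mineralocorticoid receptor (Nr3c2), the thyroid hormone receptors alpha (Thra) and beta (Thrb), the prolactin receptor (Prlr) and the progesterone receptor membrane component 1 (Pgrmc1). All 7 were expressed above the filter on low values, which kept 12330 genes with a CPM (counts-per-million) of 0.66 or more in 6 or more of the 24 libraries.

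The libraries came from the livers of male (m) and female (f) mice aged 12 weeks on the strain background labelled C57/BL6N (C57BL/6N in the study's methods), with 6 mice each of wildtype males (mWT), knockout males (mKO), wildtype females (fWT) and knockout females (fKO) and 1 library per mouse. KO mice were homozygous for a CRISPR/Cas9 deletion of the major urinary protein (Mup) gene cluster in every cell of the body, and WT mice had the intact cluster. The whole KO line descended from a single male founder, so that effects of the deletion and of other changes carried by that founder cannot be told apart. All 4 groups ate standard chow and received no experimental treatment. By the study's methods, the mice were fasted for a short time, anesthetized with isoflurane, scanned by microCT and killed right after the scan.

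Esr1, Nr3c1, Nr3c2, Thra and Thrb encode nuclear receptors, transcription factors that bind a small lipophilic hormone and, through a pair of zinc fingers, short DNA motifs near their target genes. The prolactin receptor lies in the cell membrane, where it passes the signal of the pituitary hormone prolactin on through the kinase Jak2 to Stat transcription factors. Pgrmc1 is a membrane protein that binds heme and interacts with cytochrome P450 enzymes, and it is no relative of the nuclear progesterone receptor. It is counted among the receptors here only because the group holds it. In the liver, glucocorticoids are known to raise gluconeogenesis, thyroid hormone to act on cholesterol and fatty acid metabolism mainly through Thrb, and estrogen to act on lipid handling through Esr1.

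The labels were checked first. The summed expression of the 22 Mup genes, which are the target of the deletion, ranged from 17019 to 37372 CPM in mWT and from 3393 to 5256 CPM in fWT mice, and it was at most 0.457 CPM in the KO mice, with 0 Mup reads in 5 of 6 mKO and 4 of 6 fKO mice. The Y-linked gene Ddx3y was at 78.8 CPM or more in all males and had 0 reads in all females. Total counts ranged from 15361901 to 26261394 per library, and the smallest amount taken as detectable, 3 counts, was at most 0.195 CPM (counting error only). Of 6 hepatocyte markers, 5 were listed, and their summed level was 93371 to 147720 CPM over all mice. The adipocyte and pancreatic acinar markers summed to at most 0.157 CPM, with the adipocyte marker Lep at 0 reads in all libraries. Of the 24 cell type markers tested, 0 had an adjusted p-value under 0.05 in the KO comparisons within a sex by edgeR's quasi-likelihood test or by DESeq2 (3 at an unadjusted p-value under 0.05 in males and 1 in females).

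The sequences below show how closely 3 of the nuclear receptors are related at the part that reads DNA. They are stretches of 72 bases of the coding strand, from the open reading frames of GENCODE M21 transcripts (GRCm38). Each encodes the first zinc finger, from its first cysteine to just past its last. Capitals mark the codons of the P box, the residues known to choose the DNA motif.
Esr1: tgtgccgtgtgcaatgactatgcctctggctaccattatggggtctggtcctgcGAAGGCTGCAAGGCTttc
Thra: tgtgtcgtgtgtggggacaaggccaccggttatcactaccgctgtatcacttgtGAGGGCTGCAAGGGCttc
Thrb: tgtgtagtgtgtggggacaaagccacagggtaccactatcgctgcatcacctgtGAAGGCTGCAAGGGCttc
Thra and Thrb were identical at 63 of 72 bases (87.5%). Esr1 was identical to Thrb at 68.1% and to Thra at 62.5% of the bases. The 2 thyroid hormone receptors shared no stretch of 50 bases with each other anywhere in their annotated transcripts. The same held for Nr3c1 and Nr3c2, and no 50-base stretch of Pgrmc1 occurred in a transcript of any other gene.

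Exons of 3 of the receptor genes overlap those of other genes in the GENCODE M21 annotation. Exons of Thra (chromosome 11, 98740638 to 98769006, + strand) share 263 bases, 5.70% of their length, with Nr1d1 on the opposite strand, which encodes the circadian repressor Rev-erb alpha. Exons of Prlr (chromosome 15, 10177238 to 10349180, + strand) share 203 bases (1.32%) with the predicted gene Gm21973 on the same strand. Exons of Nr3c2 (chromosome 8, 76899442 to 77245012, + strand) share 247 bases (3.82%) with the noncoding gene Gm10649 on the opposite strand, for which no value was used here. The strand setting of the counting is not given in the sources used here, so the counts of Thra and Nr3c2 carry this uncertainty. Prlr and Gm21973 lie on the same strand, so no strand setting separates their reads in the shared bases. The other genes lie at chromosome 10, 4611593 to 5005614, + strand (Esr1), chromosome 18, 39410545 to 39519421, - strand (Nr3c1), chromosome 14, 17660261 to 18038090, + strand (Thrb) and chromosome X, 36598206 to 36606079, + strand (Pgrmc1).

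Levels of different genes were compared per length, as CPM per kilobase (kb) of the union of all annotated exons. Pgrmc1 had the highest level in every group, with a mean of 624 ± 81.7 CPM per kb (SD, n = 6) for mWT and of 590 ± 35.3 (SD, n = 6) for fWT mice. Nr3c1 took the second place in males, at 14.5 ± 1.39 CPM per kb (SD, n = 6) in mWT and 13.4 ± 1.19 (SD, n = 6) in mKO mice. In females, Prlr took the second place at 33.8 ± 5.14 CPM per kb (SD, n = 6) in fWT and 34.0 ± 5.97 (SD, n = 6) in fKO mice, ahead of Nr3c1 at 14.04 ± 1.42 and 15.4 ± 0.416 (SD, n = 6 each). The ranges of these places did not meet their neighbors in the order.

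Thrb and Prlr stood next to each other in males, and their ranges met, at 7.42 ± 1.17 and 6.75 ± 1.16 CPM per kb (SD, n = 6 each) in mWT mice. Nr3c2, Esr1 and Thra had the lowest levels per length in all 4 groups (with the longest transcript as the length, Esr1 stood above Thrb in fKO mice), and in each group the ranges of neighbors among these 3 genes met. In mKO mice, Esr1 was the lowest of the 7 receptors at 1.076 ± 0.248 CPM per kb (SD, n = 6), whereas in mWT, fWT and fKO mice the lowest was Thra, at 1.59 ± 0.321, 1.39 ± 0.281 and 1.54 ± 0.285 CPM per kb (SD, n = 6 each).

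**Figure D1:**
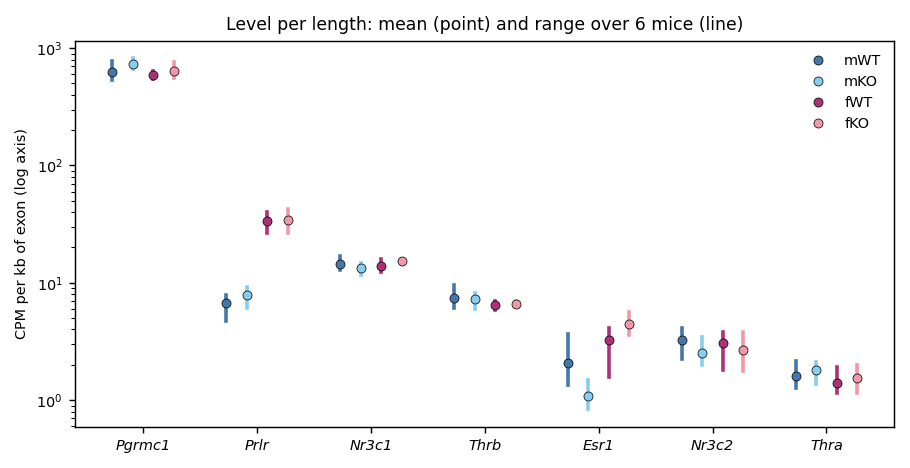
Level of the 7 receptor genes per kb of exon (vertical log axis, CPM per kb) in mWT, mKO, fWT and fKO mice. Points are means and lines span the lowest to the highest of 6 mice, and Prlr is the gene whose female and male ranges lie farthest apart, at means of 33.8 (fWT) and 6.75 (mWT) CPM per kb.

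Estrogen receptor alpha had the largest KO difference of the 7 genes in males, which passed the adjusted threshold in DESeq2 but not in edgeR, and its difference in females passed it in neither. Expression of Esr1 in mWT mice was 18.4 CPM at the lowest, 22.6 at the median and 49.9 at the highest. In mKO mice the corresponding values were 11.4, 13.6 and 20.3 CPM. Of the 6 mKO mice, 5 lay below the lowest mWT mouse, and mWT mice 4 and 5 stood above all other males at 37.8 and 49.9 CPM. In whole liver, fewer cells of a type and less RNA per cell cannot be told apart, here and in all results that follow.

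The fitted level of Esr1 in mKO mice was 0.520 times that in mWT mice (95% confidence interval 0.362 to 0.746), a log2 fold change of -0.94 (standard error, SE, 0.251). The unadjusted p-value was 0.00111 and the adjusted p-value was 0.140 in the quasi-likelihood test of edgeR, adjusted over 12330 genes by the method of Benjamini and Hochberg. With DESeq2 in place of edgeR, the log2 fold change was again -0.94 but the adjusted p-value was 0.0111. Without mWT mouse 5, the log2 fold change was -0.71 and the unadjusted p-value 0.00493 in edgeR.

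In females, Esr1 expression was 21.6, 49.7 and 56.6 CPM in fWT mice and 49.0, 60.0 and 76.5 CPM in fKO mice (lowest, median and highest). The groups overlapped, with fWT mouse 3 lowest by far. The log2 fold change of 0.45 (SE 0.240) was not past the threshold (adjusted p = 0.929 in the same model, unadjusted p = 0.0741). The KO effect in males minus that in females was -1.39 on the log2 scale (SE 0.347, unadjusted p = 0.000598, adjusted p = 0.745 in edgeR), which was the 8th lowest unadjusted p-value of the 12330 genes for this interaction. With DESeq2, the adjusted p-value of the interaction was 0.0198.

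Levels of Nr1d1, a gene whose liver RNA is known to rise and fall over the day, varied widely between the mice and tended to move opposite to Esr1. The mWT mice 4 and 5, with the highest Esr1 of all males, had the lowest Nr1d1 of all males at 20.8 and 11.9 CPM, against 34.6 to 119 CPM in the other 4 mWT mice and 52.5 to 104 CPM in mKO mice. Over the 24 libraries, after the mean of each group was taken off, Pearson's r between log2 CPM of Esr1 and Nr1d1 was -0.47, and that between Thra and Nr1d1 was 0.63 (a description, since all values come from the same libraries). Thra and Nr1d1 share exon bases on opposite strands, and the strand setting of the counting is not given. The part of reads from the shared bases in the r of Thra was not tested. An alternative fit, chosen after seeing the data, had log2 CPM of Nr1d1 as a covariate. In that fit, the log2 fold change of Esr1 between mKO and mWT mice was -0.62 (unadjusted p = 0.0186, adjusted p = 0.543 in edgeR). The KO effect in males minus that in females was -1.02 (unadjusted p = 0.0054, adjusted p = 0.969 in edgeR). The time of day at which each mouse was killed was not used here, and its part in the result was not tested.

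**Figure D2:**
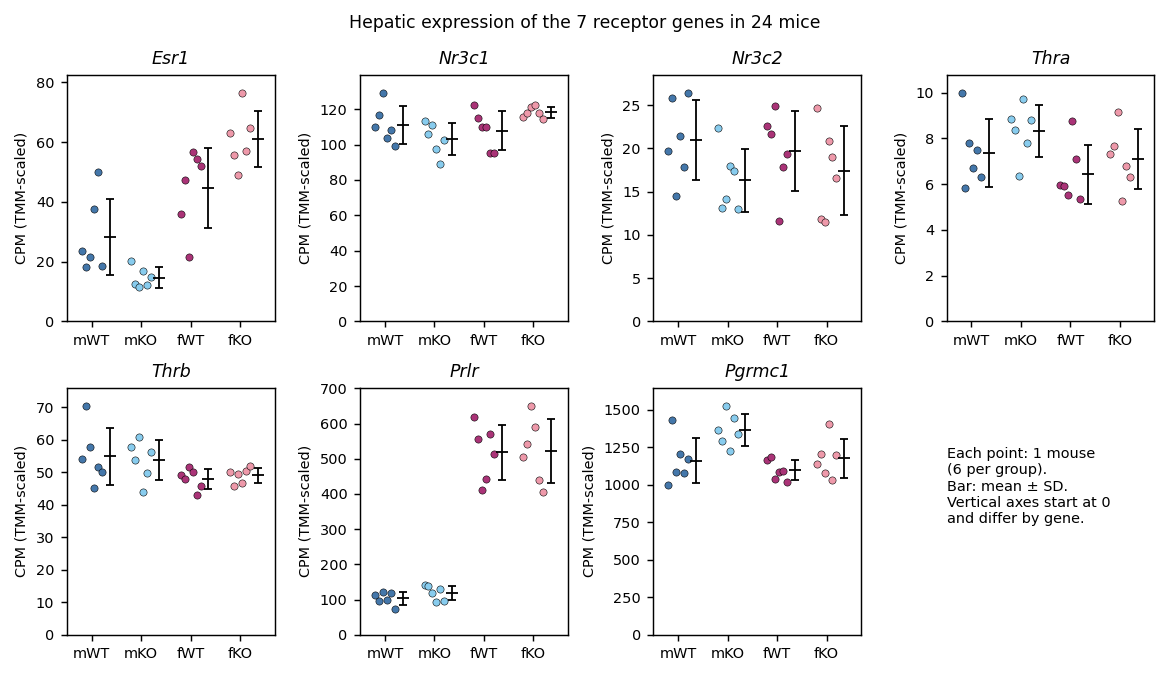
Expression of each receptor gene in every mouse (points; vertical axis, TMM-scaled CPM from 0, with its own scale for each gene) in mWT, mKO, fWT and fKO mice, with the group mean ± SD beside the points. Esr1 of 5 of the 6 mKO mice lies below the lowest mWT mouse, and Prlr of every female lies above that of every male.

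The question of the KO comparisons was how the loss of Mup changes hepatic gene expression in each sex. Of the 7 receptors, 0 had an adjusted p-value under 0.05 between mKO and mWT mice, where 0.211% of all genes tested had one, and 2 (Esr1 and Pgrmc1) had an unadjusted p-value under 0.01, where 3.52% of all genes had one. The number with an unadjusted p-value under 0.05 was also 2 (10.6% of all genes), and 1 (Esr1) was called by DESeq2, which called 142 of the 7310 genes to which it gave an adjusted p-value. For 0 of the 7 did the mKO and mWT mice fail to overlap, against 1.09% of all genes. Between fKO and fWT mice, 0 of 7 had an adjusted p-value under 0.05 (0.0892% of all genes), 0 an unadjusted p-value under 0.01 (0.868%), 0 an unadjusted p-value under 0.05 (4.87%), 0 were called by DESeq2 (18 of 12330 genes) and for 0 the groups did not overlap (0.349%). For the interaction, 0 of 7 were called by edgeR (0.00811% of all genes), 1 by DESeq2 (Esr1; 10 of 12330 genes), 1 had an unadjusted p-value under 0.01 (Esr1; 1.16% of all genes), and 2 had one under 0.05 (Esr1 and Nr3c1; 5.99% of all genes).

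Between the sexes, Prlr was higher in females in both genotypes, and Esr1 was higher in females in KO mice. In WT mice, 1 of the 7 receptors (Prlr) had an adjusted p-value under 0.05, against 17.3% of all genes tested, and it was higher in females, as were 8.82% of all genes, whereas 0 of 7 were lower (8.51% of all genes). The 2 groups did not overlap for 1 of 7 (Prlr; 7.71% of all genes). In KO mice, 2 of 7 (Prlr and Esr1) were called, against 14.4% of all genes. Both were higher in females (7.13% of all genes) and 0 were lower, where 7.26% of all genes were. For 3 of 7 (Prlr, Esr1 and Nr3c1) the fKO and mKO mice did not overlap, against 7.26% of all genes. The comparisons share groups, so fKO against mKO is not independent of the KO comparisons.

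For Esr1, the fitted level in fKO mice was 4.14 times that in mKO mice (95% confidence interval 2.87 to 5.96), a log2 fold change of 2.05 (SE 0.253, adjusted p = 4.97e-06 in edgeR). All 6 fKO mice, from 49.0 CPM, were above all 6 mKO mice, up to 20.3 CPM. In WT mice the log2 fold change was 0.65 (SE 0.244, unadjusted p = 0.0137, adjusted p = 0.069) and the sexes overlapped between 21.6 and 49.9 CPM. This call depended on single mice and on the model: the adjusted p-value was 0.00904 without mWT mouse 5 (log2 fold change 0.89), 0.0176 without fWT mouse 3 (log2 fold change 0.80), 0.0274 with DESeq2 and 0.0126 with Nr1d1 as a covariate.

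The prolactin receptor had the largest sex difference of the 7 genes and no KO difference past the threshold. Expression of Prlr was 72.9, 107 and 121 CPM in mWT, 94.4, 124 and 141 CPM in mKO, 411, 535 and 618 CPM in fWT and 405, 524 and 650 CPM in fKO mice (lowest, median and highest). Every female was thus above every male, with a wide gap between 141 and 405 CPM. The fitted level was 5.01 times as high in fWT as in mWT mice (95% confidence interval 4.10 to 6.11, log2 fold change 2.32, SE 0.140, adjusted p = 2.1e-12 in edgeR), and 4.36 times as high in fKO as in mKO mice (95% confidence interval 3.58 to 5.32, log2 fold change 2.12, SE 0.139, adjusted p = 1.39e-11). The log2 fold change was 0.21 (95% confidence interval -0.07 to 0.49) between mKO and mWT mice and 0.01 (-0.26 to 0.28) between fKO and fWT mice, with adjusted p-values of 0.628 and 0.996 in edgeR.

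The predicted gene Gm21973, which shares exon bases with Prlr, ranged from 25.4 to 33.7 CPM in males and from 47.5 to 65.4 CPM in females. Its log2 fold change between fWT and mWT mice was 0.97 (SE 0.0842, adjusted p = 2.65e-09 in edgeR). How many of its reads lay in the shared bases was not tested.

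The promoters of Esr1 and Prlr are shown because these 2 genes were higher in females in KO mice. RefSeq promoter windows (GRCm38.p6, 250 bases before to 50 bases after an annotated start site) were searched for 9 start sites of Esr1, Nr3c2, Prlr, Thrb and Pgrmc1. The Stat binding motif GAS (TTCNNNGAA on either strand, the same when read backwards on the other strand) was found once at 1 of 2 Esr1 start sites and once at 1 of 3 Prlr start sites, and in none of the other windows. The 250 bases before each of these 2 start sites follow, 5′ to 3′ on the + strand, with the motif in capitals.
Esr1, chr10:4709908-4710157: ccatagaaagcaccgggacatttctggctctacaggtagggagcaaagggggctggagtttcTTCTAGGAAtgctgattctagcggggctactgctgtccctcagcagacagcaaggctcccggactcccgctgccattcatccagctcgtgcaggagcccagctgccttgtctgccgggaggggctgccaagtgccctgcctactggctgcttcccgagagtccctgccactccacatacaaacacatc
Prlr, chr15:10223656-10223905: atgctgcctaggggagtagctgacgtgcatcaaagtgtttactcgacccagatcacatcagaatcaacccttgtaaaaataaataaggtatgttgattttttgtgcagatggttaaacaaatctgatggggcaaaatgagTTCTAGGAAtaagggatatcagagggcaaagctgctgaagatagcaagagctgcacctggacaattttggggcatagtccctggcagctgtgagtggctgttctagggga
The motif starts 188 bases before the Esr1 and 110 bases before the Prlr start site, and both genes have the same 9 bases, TTCTAGGAA. Of 32544 promoter windows of the same length, 8.33% hold a GAS motif, a share per window, where Esr1 had 2 windows and Prlr 3. The exact word is held by 0.415% of windows on either strand. It was read from the windows of these genes first, so its low share is no test of a shared element. No window of Nr3c1 or Thra was searched. The motif AGGTCA, a core word of the elements read by thyroid hormone and estrogen receptors, was found in 1 window of Thrb (16.2% of all windows hold it). The motif AGAACA, a core word of the elements read by the glucocorticoid and mineralocorticoid receptors, was found in 1 window each of Prlr, Thrb and Pgrmc1 (18.9% of all windows). A match of letters is a description and does not show binding.

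**Figure D3:**
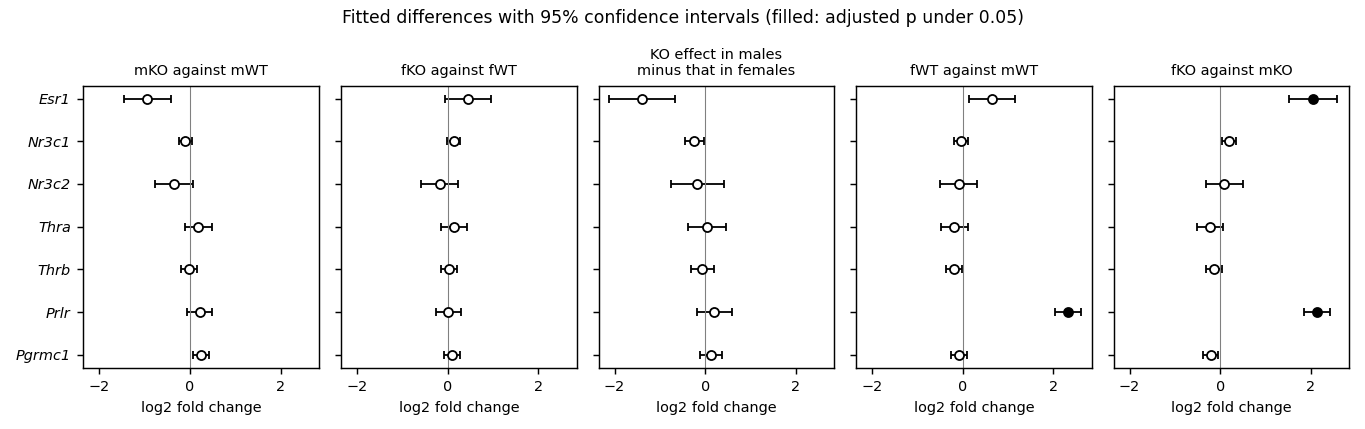
Log2 fold changes of the 7 receptor genes (points) with 95% confidence intervals (lines) for the 5 comparisons, from 1 edgeR fit of all 24 libraries, with filled points for adjusted p-values under 0.05. The filled points are Prlr at 2.32 in WT mice and Esr1 at 2.05 and Prlr at 2.12 in KO mice, all in females against males.

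No difference of the corticosteroid receptors passed the adjusted threshold in the edgeR fit of all 24 libraries with the group as its only term. Nr3c1, which binds glucocorticoids, was expressed at 99.1, 109 and 129 CPM in mWT, 88.8, 104 and 113 CPM in mKO, 94.96, 110 and 122 CPM in fWT and 114, 118 and 123 CPM in fKO mice (lowest, median and highest). The fKO mice were all just above the highest mKO mouse, and the other groups overlapped. The log2 fold change was -0.11 (SE 0.0726, adjusted p = 0.659 in edgeR) between mKO and mWT mice and 0.13 (SE 0.0725, adjusted p = 0.929) between fKO and fWT mice. The difference of these effects was -0.24 (SE 0.103, unadjusted p = 0.0282, adjusted p = 0.823). Between fKO and mKO mice the log2 fold change was 0.19 (95% confidence interval 0.05 to 0.34), with an adjusted p-value of 0.0732, which was 0.0474 without mKO mouse 1, 0.0377 with the replicate number as a block and 0.0439 with Nr1d1 as a covariate.

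Nr3c2, which binds aldosterone and also glucocorticoids, was expressed at 14.5, 20.5 and 26.4 CPM in mWT, 12.9, 15.8 and 22.4 CPM in mKO, 11.6, 20.5 and 24.9 CPM in fWT and 11.5, 17.8 and 24.6 CPM in fKO mice. All groups overlapped widely. The log2 fold change was -0.36 (95% confidence interval -0.77 to 0.06, adjusted p = 0.558 in edgeR) between mKO and mWT mice and -0.18 (-0.59 to 0.23, adjusted p = 0.947) between fKO and fWT mice. Per length, the glucocorticoid receptor stood at 4.73 ± 1.52 times the level of the mineralocorticoid receptor in mWT and at 5.55 ± 1.28, 4.89 ± 1.54 and 6.20 ± 1.98 times in mKO, fWT and fKO mice (all SD, n = 6), with ranges that overlapped.

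Of the thyroid hormone receptors, Thrb was the more abundant in the liver of every group. Its expression was 45.2, 52.9 and 70.4 CPM in mWT, 43.9, 55.1 and 61.0 CPM in mKO, 43.1, 48.6 and 51.7 CPM in fWT and 45.7, 49.8 and 51.9 CPM in fKO mice. The females lay in a narrow band near the lower end of the males. Log2 fold changes of Thrb were -0.03 (95% confidence interval -0.21 to 0.15) between mKO and mWT and 0.03 (-0.14 to 0.21) between fKO and fWT mice. Between fWT and mWT mice it was -0.20 (SE 0.0859, unadjusted p = 0.0312, adjusted p = 0.119 in edgeR), and the adjusted p-value was 0.0481 without mWT mouse 4.

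Thra was expressed at 5.85, 7.10 and 9.99 CPM in mWT, 6.37, 8.58 and 9.74 CPM in mKO, 5.33, 5.94 and 8.77 CPM in fWT and 5.26, 7.07 and 9.14 CPM in fKO mice, with 94 to 213 reads per library. All 4 groups overlapped, and adjusted p-values were 0.732 in males and 0.946 in females. Per length, Thrb stood at 4.83 ± 1.41 times the level of Thra in mWT, 4.14 ± 1.02 in mKO, 4.78 ± 0.906 in fWT and 4.44 ± 0.825 in fKO mice (SD, n = 6 each), and these ratios overlapped between all groups.

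Pgrmc1 was the most abundant of the 7 genes. Its expression was 996, 1127 and 1430 CPM in mWT, 1226, 1350 and 1523 CPM in mKO, 1016, 1089 and 1182 CPM in fWT and 1029, 1167 and 1406 CPM in fKO mice. Of the 6 mKO mice, all were above 5 of the 6 mWT mice, and mWT mouse 2 at 1430 CPM lay among the highest mKO mice. The log2 fold change of 0.24 (95% confidence interval 0.06 to 0.41, unadjusted p = 0.00998) had an adjusted p-value of 0.283 in edgeR, and it was 0.30 without mWT mouse 2 and 0.19 without mWT mouse 1. Between fKO and fWT mice the log2 fold change was 0.10 (-0.07 to 0.27, adjusted p = 0.943), and the difference between these effects was 0.14 (SE 0.120, adjusted p = 0.915). Between fKO and mKO mice it was -0.22 (SE 0.0846, adjusted p = 0.0903), with an adjusted p-value of 0.0291 without fKO mouse 4 and 0.0456 with Nr1d1 as a covariate.

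Of 24 cell type markers tested, 7 were called between fWT and mWT mice and 6 between fKO and mKO mice in edgeR, where 17.3% and 14.4% of all genes were. The summed level of 3 erythroid markers was 142 to 197 CPM in mWT and 143 to 232 CPM in mKO mice, against 34.0 to 55.3 CPM in fWT and 35.1 to 51.6 CPM in fKO mice. In edgeR, 1 of 3 (Alas2) was called between fWT and mWT and 3 of 3 between fKO and mKO mice. The globin Hbb-bs was not called in WT mice, so the sum does not stand for each marker alike. Of 4 Kupffer cell markers, 3 were called between fWT and mWT mice, and their sum was 71.2 to 143 CPM in fWT and 37.4 to 80.5 CPM in mWT mice. Between fKO and mKO mice 0 of the 4 were called in edgeR (1 at an unadjusted p-value under 0.05, and 0 by DESeq2), and the sums overlapped, at 63.1 to 111 CPM and 39.2 to 110 CPM. Of 4 endothelial markers, 2 were called in WT and 1 in KO mice, with sums of 103 to 123 CPM in mWT, 104 to 131 in mKO, 117 to 160 in fWT and 105 to 162 in fKO mice. The other markers called were the lymphocyte marker Ptprc in WT mice and the hepatocyte marker Ttr and the stellate cell marker Lrat in KO mice. The part of these differences in the sex differences of Prlr and Esr1 was not tested.

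Other genes of the same hormone systems were read from 7 lists with 70 genes tested between them. In the KO comparisons within a sex and in the interaction, 0 of the 70 had an adjusted p-value under 0.05 in edgeR. At an unadjusted p-value under 0.05 there were 12 for the male KO, 4 for the female KO and 5 for their interaction, and DESeq2 called 3 in males, Ep300 and Pgrmc2 among them, and 0 in the other 2 comparisons. Between fWT and mWT mice 17 of 70 were called, where 17.3% of all genes were, and between fKO and mKO mice 10 of 70, where 14.4% of all genes were. The counts of the single lists are to be read against the same shares, and with 2 to 20 genes tested in a list no list is called particular from them.

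Among 11 receptors related to the 7, 8 were tested, and 3 of them were called between fWT and mWT mice. The growth hormone receptor Ghr was lower in fWT than in mWT mice (log2 fold change -0.37, adjusted p = 0.0014 in edgeR), and the estrogen-related receptor Esrrg was higher (0.88, adjusted p = 0.0439). Pgrmc2, the closest relative of Pgrmc1, was at 45.7 to 61.2 CPM in mWT and 60.3 to 78.0 CPM in mKO mice, with a log2 fold change of 0.34 (SE 0.0838, unadjusted p = 0.000439, adjusted p = 0.102). The list's median log2 fold change was 0.10 in males, -0.02 between fWT and mWT and -0.07 between fKO and mKO mice, where the median over all genes was 0.00 in each case. The nuclear progesterone receptor Pgr had 0 reads in all males, 1 read in fWT and 2 reads in fKO mice, and estrogen receptor beta (Esr2) had 5, 4, 3 and 1 reads in all mWT, mKO, fWT and fKO mice, both too few to be tested.

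Of 18 genes that carry, import or convert these hormones, 12 were tested, and 7 were called between fWT and mWT (17.3% of all genes) and 7 between fKO and mKO mice (14.4% of all genes). Srd5a1, a steroid 5-alpha-reductase with the lowest p-value of the list in WT mice, was at 84.1 to 145 CPM in mWT and 33.3 to 60.6 CPM in fWT mice (log2 fold change -1.34, adjusted p = 6.22e-07 in edgeR), and its log2 fold change between fKO and mKO mice was -1.14 (adjusted p = 7.15e-06). Serpina6, which encodes corticosteroid-binding globulin, was higher in females by 0.92 in WT (adjusted p = 1.75e-05) and by 1.30 in KO mice (adjusted p = 1.23e-07). The amino acid and thyroid hormone transporter Slc16a10 and the steroid 5-beta-reductase Akr1d1 were higher in females in both genotypes, with log2 fold changes of 0.54 and 0.40 in WT and 0.61 and 0.61 in KO mice. Crym, a cytosolic thyroid hormone binding protein, was higher in fWT than in mWT mice by 1.29 on the log2 scale (adjusted p = 0.0114), at low levels of 0.176 to 1.48 CPM. H6pd, which supplies cofactor to the cortisone-activating enzyme Hsd11b1, was lower in fKO than in mKO mice (-0.41, adjusted p = 0.000293). Its mean was also lower in fWT (300 CPM) than in mWT mice (349 CPM), a difference that DESeq2 called. In males, Ttr, a thyroxine carrier, had a log2 KO difference of 0.30 (unadjusted p = 0.00427, adjusted p = 0.212) and H6pd one of 0.21 (unadjusted p = 0.00891, adjusted p = 0.275).

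Of 20 receptor chaperones, partners and coregulators, all 20 were tested, and 1 was called between fWT and mWT and 0 between fKO and mKO mice in edgeR (2 at an unadjusted p-value under 0.05, and 1, Ncoa1, by DESeq2). The one called was Rxrg, a partner of thyroid hormone receptors, with a log2 fold change of 0.80 (adjusted p = 0.00921) at 1.46 to 3.298 CPM in mWT and 3.86 to 4.93 CPM in fWT mice. Ncoa1, a coactivator, was at -0.18 between fKO and mKO mice (unadjusted p = 0.0074, adjusted p = 0.0509), and the coactivator Ep300 at -0.34 between mKO and mWT mice (unadjusted p = 0.000897, adjusted p = 0.13). The median log2 fold change of the list lay between -0.04 and 0.01 in the 5 comparisons.

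Downstream of Prlr, 10 of 11 signalling genes were tested, and 2 were called between fWT and mWT mice. Socs2, a feedback inhibitor, was higher in fWT than in mWT mice by 1.55 on the log2 scale (adjusted p = 0.0377 in edgeR), at 9.43 to 70.9 CPM against 6.04 to 23.0 CPM. Between fKO and mKO mice 0 of 10 were called in edgeR (2 at an unadjusted p-value under 0.05, and 1, Socs2, by DESeq2). Whether sex differences of these genes differed between genotypes was tested as the interaction, which called 0 of 10 (1 at an unadjusted p-value under 0.05, and 0 by DESeq2), with 0.15 on the log2 scale for Socs2 (SE 0.699).

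Of 15 glucocorticoid receptor targets, 1 was called between fWT and mWT mice (Sgk1, a kinase, log2 fold change 0.61, adjusted p = 0.0208 in edgeR) and 1 between fKO and mKO mice (Lcn2, an acute phase protein, 1.70, adjusted p = 0.0359). Lcn2 was at 4.04 to 33.1 CPM in fKO and 1.74 to 6.24 CPM in mKO mice, so these groups overlapped, and its spread was wide in fKO mice (SD 11.2 CPM). Of 6 thyroid hormone receptor targets tested, the metabolic enzymes Gpd2 and Me1 were lower in fWT than in mWT mice (-0.60 and -0.85, adjusted p = 0.00891 and 0.0209), and Me1 was also lower in fKO than in mKO mice (-0.84, adjusted p = 0.0256). Of 5 estrogen receptor targets 2 were tested, and the cell cycle gene Ccnd1 was higher in females in both genotypes, by 1.66 in WT (adjusted p = 6.1e-05) and 2.54 in KO mice (adjusted p = 3.74e-07). Ccnd1 was at 16.9 to 47.7 CPM in mWT and 11.9 to 18.8 CPM in mKO mice, with a log2 fold change of -0.74 (SE 0.256, unadjusted p = 0.00879, adjusted p = 0.274). For the other target tested, the log2 fold change was 0.065 between mKO and mWT mice. It was 0.13 between fWT and mWT and 0.14 between fKO and mKO mice, and edgeR called none of these.

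**Figure D4:**
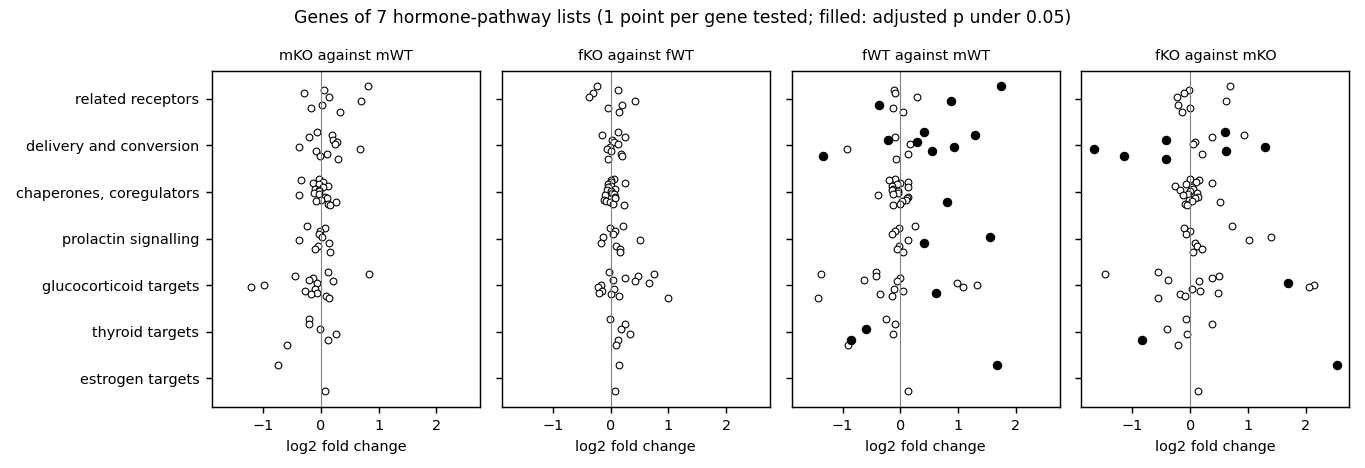
Log2 fold changes (horizontal axes) of the genes tested in 7 lists of hormone pathway genes (rows, 1 point per gene) for 4 comparisons, with filled points for adjusted p-values under 0.05 in edgeR. The KO panels have 0 filled points, and the farthest filled point to the right in the panel of fKO against mKO mice is Ccnd1 among the estrogen targets, at 2.54.

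The genes whose log2 CPM followed each receptor most closely over the 24 libraries were found by Pearson's r, as a description over mice that share groups and depth. For Esr1 they were Trim24 (r = 0.88), Prkag2 (0.87) and Cux2 (0.85). For Prlr they were Rdh16f2 (0.99), the overlapping gene Gm21973 (0.99) and Cyp2b9 (0.98), and for Pgrmc1 they were Ghitm (0.91), Cmpk1 (0.91) and Esd (0.89). For Nr3c1 they were Rbm6 (0.79), Trim44 (0.78) and Mob1a (0.74), and for Nr3c2 they were Pde8a (0.73), Ankrd17 (0.72) and Dock5 (0.69). For Thra they were Ppm1f (0.87), Kyat1 (0.83) and Cnp (0.82), and for Thrb they were Nr2c2 (0.76), Txlng (0.75) and Usf3 (0.75). When the mean of each group was taken off first, 2 of these 3 genes stayed among the 3 closest for Prlr, 1 for Pgrmc1 and 0 for the other 5 receptors. Between the receptors themselves, r was 0.77 for Esr1 and Prlr over all mice and 0.22 with the group means taken off.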

How the data were processed

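Liver RNA of 24 mice was measured by RNAseq, 1 library per mouse. The authors deposited raw read counts for each Ensembl gene, with no normalization or filter. Stranded mRNA libraries were sequenced in a single multiplex as single-end reads, trimmed with fastp, aligned to GRCm38.p6 with STAR and counted with featureCounts. The submitters' processing notes name bcl2fastq 2.19, fastp 0.20 and edgeR 3.28.1. The annotation release and the treatment of multimapping reads are not given in the sources used here. Of the 25746 genes, 25635 matched GENCODE M21 (GRCm38).

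The software was edgeR 4.0.16 in R 4.3.3. A gene was kept if 6 or more of the 24 libraries reached 0.66 CPM. After TMM scaling, 1 robust quasi-likelihood fit, with deviances as in the older edgeR, took in all 24 libraries with the group as its only term. Tested were mKO against mWT, fKO against fWT, the difference of these effects, fWT against mWT and fKO against mKO. Genes were called at a Benjamini-Hochberg adjusted p-value under 0.05 over all genes tested, and an unadjusted p-value under 0.01, the study's cut-off, was counted beside it. CPM are TMM-scaled. All tests were two-sided. Mice of the same group always differed beyond counting noise (lowest chi-square per gene 8.07 of 60 pairs). On simulated counts for 12330 genes with 200 changed, 88% were recovered for fWT against mWT and 91% for fKO against mKO, and 4.35% and 6.67% of the calls were false. The changes were planted between the sexes only, equal in both genotypes, and each was larger than any receptor's KO difference within a sex. No KO change was planted, so the recovery of KO differences was not tested.

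The receptors and the gene lists were chosen with earlier results of these data known. Named besides the 7 receptors were up to 5 genes of a list with the lowest p-value among those called in a comparison, or, with none called, up to 2 with an unadjusted p-value under 0.01; the 3 genes most like each receptor; genes with overlapping exons; and the summed Mup genes. Markers, the untested receptors Pgr and Esr2, and genes called only by DESeq2 were named in addition. Alternatives were DESeq2 1.42.0, its size factors, no filter, 0.66 CPM in at least 2 libraries, deviances of edgeR 4, only the 2 groups compared, a replicate block, each mouse left out in turn, and, added after seeing the data, Nr1d1 as a covariate. Nr1d1 was chosen because it overlaps Thra, and its level tended to move opposite to that of Esr1. Figures were drawn with matplotlib 3.10.9. Some results on genes of the lists and on sequences are not reported here.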

Additional observations from a re-analysis of the deposited data

Results flagged for a closer look

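Of the results for the 7 receptors, 1 was picked out. For Esr1, all 6 mKO mice lay below the mean of the mWT mice (28.3 CPM), and all 6 fKO mice lay above the mean of the fWT mice (44.6 CPM). The latter rests on fWT mouse 3 at 21.6 CPM, since the lowest fKO mouse, at 49.0 CPM, was not above the fWT median of 49.7 CPM. The female difference passed the threshold in neither edgeR (log2 fold change 0.45, adjusted p = 0.929) nor DESeq2 (adjusted p = 0.923), so opposite KO effects are not shown. The KO effect in males minus that in females was -1.39 on the log2 scale, with an unadjusted p-value of 0.000598 and an adjusted p-value of 0.745 in edgeR's quasi-likelihood test (0.0198 in DESeq2). It ranged from -1.51 to -1.16 when each mouse was left out in turn and was -1.02 with Nr1d1 as a covariate. In the 28 sets of 6 values (7 receptors in 4 groups), 0 mice stood apart from their group by Dixon's test, of which chance picks out about 1 set in 20.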

How the results depend on the processing

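Of 273 values of the receptors' log2 fold changes under alternatives other than leaving out mice, 262 kept their direction and side of the threshold in the 5 comparisons, 8 moved past the threshold and 3 turned their sign. DESeq2 called 1 receptor (Esr1) between mKO and mWT mice and 1 (Esr1) for the interaction, where edgeR called 0, and 2 between fWT and mWT mice, where edgeR called 1. Over all genes, DESeq2 called 142, 18 and 10 genes for the male KO, the female KO and their interaction, where edgeR called 26, 11 and 1, the fit of the 2 male groups alone called 48 and the fit without mWT mouse 1 called 59 in males, the latter 2 with fewer samples; the cause of the DESeq2 counts was not tested. With Nr1d1 as a covariate, 2 receptors were called between fWT and mWT and 4 between fKO and mKO mice, the log2 fold change of Thra was -0.016 between mKO and mWT mice and -0.17 for the interaction, that of Nr3c2 was -0.029 between fKO and mKO mice, and 245 genes in place of 434 had an unadjusted p-value under 0.01 in males; the cause was not tested.

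The replicate numbers of the labels do not pair animals, and in 36 pairs of same-numbered mice of different groups the deviations from the group means had a median correlation of -0.0019 (-0.34 to 0.25), against -0.0063 in 180 pairs with different numbers. With a replicate block, 2 receptors in place of 1 were called between fWT and mWT mice (Esr1, log2 fold change 0.67, adjusted p = 0.0292 in edgeR) and 3 in place of 2 between fKO and mKO mice (Nr3c1), and the other 3 counts stayed at 0.

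With each of the 24 mice left out in turn, 0 receptors were called in the KO comparisons and the interaction, 1 to 2 between fWT and mWT and 2 to 3 between fKO and mKO mice. The second receptor in WT mice was Esr1 without fWT mouse 3 or mWT mouse 5 and Thrb without mWT mouse 4. Small log2 fold changes crossed 0: Thrb spanned -0.080 to 0.054 between mKO and mWT mice and -0.11 to 0.021 for the interaction, Prlr -0.061 to 0.073 between fKO and fWT mice, Thra -0.072 to 0.15 for the interaction, Nr3c1 -0.079 to 0.0041 and Nr3c2 -0.18 to 0.026 between fWT and mWT mice, and Nr3c2 -0.034 to 0.20 between fKO and mKO mice. Levels per length depend on the transcripts used, and with the longest transcript Prlr took place 3 and Esr1 place 5 in mWT mice, Thra took place 5 in mKO mice and Esr1 place 4, above Thrb, in fKO mice. Counting error weighed most on Thra, with 94 to 213 reads per library.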

Other observations

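Values of 2 genes outside the receptors stood out. The erythroid marker Alas2, which makes heme in red cell precursors, was at 101 to 153 CPM in all males and at 8.47 to 19.3 CPM in all females, a log2 fold change of -3.44 between fWT and mWT mice (SE 0.170, adjusted p = 1.44e-13 in edgeR), whereas the globin Hbb-bs, in the same marker list, was at -0.31 (adjusted p = 0.22). Nr1d1 ranged from 11.9 to 119 CPM among mWT mice and had a log2 fold change of 0.69 between mKO and mWT mice (SE 0.467, adjusted p = 0.655).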
